A study of Mus musculus with 12 samples.

Results

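Small nucleolar RNA host genes are transcribed into long RNAs whose introns carry small nucleolar RNAs (snoRNAs). The 8 host genes described here are Gas5, Snhg1, Snhg3, Snhg5, Snhg6, Snhg8, Snhg12 and Snhg15. They were found by exact gene symbol among the 29030 genes of the deposited 4 h and 24 h comparison tables, and each symbol matched 1 gene identifier of the long non-coding class. RNA came from primary fibroblasts of C57BL/6 mouse hearts, grown in medium with fetal bovine serum, which all 4 groups shared. The groups were ethanol vehicle for 4 h, 6 µM MCB-613-10-1 for 4 h, vehicle for 24 h and 6 µM MCB-613-10-1 for 24 h, with 3 libraries in each. MCB-613-10-1 is a derivative of MCB-613, a compound known as a stimulator of steroid receptor coactivators, and the series asks how it acts against fibrosis in these cells. No label gives the age or sex of the mice, or says whether the libraries of a group came from separate mice or cultures. The p-values therefore measure only the spread between these libraries, which may be technical.

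Most snoRNAs guide chemical modification of ribosomal RNA in the nucleolus. Those of the C/D class pair with the RNA that is to be 2′-O-methylated, and those of the H/ACA class guide the change of uridine to pseudouridine. A host transcript is spliced, the snoRNA is trimmed out of the excised intron while bound by snoRNP proteins, and the joined exons remain as an RNA with little or no coding capacity. Many of these spliced RNAs begin with a run of pyrimidines, the 5′ TOP sequence that ribosomal protein mRNAs share, and many are degraded when ribosomes translate them and nonsense-mediated decay follows. Gas5 was named for its accumulation in growth-arrested cells. Its spliced RNA is also known to bind the DNA-binding domain of the glucocorticoid receptor.

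The libraries held from 25016754 to 34877090 counts. Levels are given as CPM, read counts divided by library size and scaled by the TMM method over all 12 libraries, and levels of different genes are compared only as CPM per kilobase of the deposited gene length. All 10 fibroblast markers on the list used were listed in every group, with summed levels of 14000 to 15800 CPM in vehicle and 13900 to 16400 in treated libraries at 4 h, and 15900 to 19600 and 6760 to 7100 at 24 h. The 6 cardiomyocyte markers summed to 11 to 21.8 CPM at 4 h, and to 16.3 to 19.3 in vehicle and 5.48 to 8.78 in treated libraries at 24 h, and Myh6, Actc1 and Myl7 were at 0 in all treated 24 h libraries. The 6 leukocyte markers summed to 93.8 to 100 and 66.7 to 86.0 CPM at 4 h, and to 315.0 to 363.0 in vehicle and 153.0 to 172.0 in treated libraries at 24 h. The 5 pericyte and smooth muscle markers summed to 64.6 to 81.9 CPM at 4 h, and to 14.6 to 18 in vehicle and 7.09 to 10.1 in treated libraries at 24 h. The 5 endothelial markers stayed between 35.5 and 53.5 CPM, and the 4 Schwann cell markers between 0.665 and 2.37. The 5 epicardial markers summed to 44.3 to 60.0 CPM at 4 h and to 19.2 to 23.0 at 24 h, over vehicle and treated libraries. Columns of group means carry an unexplained prefix at 24 h that is missing at 4 h, so the 24 h libraries may differ from the 4 h ones in something besides time.

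In the GENCODE M21 annotation (GRCm38), 30 snoRNA models lay inside the 8 hosts on the host's strand. Gas5 held 10, Snhg1 8, Snhg12 5, Snhg3 and Snhg5 2 each, and Snhg6, Snhg8 and Snhg15 1 each. Snord80 of Gas5 and Snora16a of Snhg12 are each covered by 2 overlapping models. All 30 were intronic in at least 1 host transcript, and 3 were intronic in every host transcript that spans them. A search of the model sequences placed a C box (TGATG, in most models followed by A) near the start and a D box (CTGA) near the end of 20 models. Another 7 ended in the ACA box of the H/ACA class, and 3 had neither pattern. The hosts therefore differ in what they carry: Gas5, Snhg5 and Snhg6 held only models with C and D boxes, Snhg3, Snhg8 and Snhg15 only models with an ACA box, and Snhg12 both kinds. The snoRNAs themselves were not analysed here. One model per tested host is shown, 5′ to 3′ as DNA, with the boxes in capitals. They lie at chr1:161038082-161038158 (plus strand), chr19:8723993-8724064 (plus), chr9:88521529-88521600 (minus), chr1:9942463-9942549 (minus), chr4:132309465-132309600 (plus), chr3:123507937-123508066 (minus) and chr11:6528033-6528165 (minus), in the order printed.
Snord47 in Gas5: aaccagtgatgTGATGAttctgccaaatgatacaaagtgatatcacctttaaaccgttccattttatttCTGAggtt
Gm25855 in Snhg1: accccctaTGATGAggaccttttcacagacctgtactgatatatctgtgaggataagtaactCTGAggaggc
Snord50a in Snhg5: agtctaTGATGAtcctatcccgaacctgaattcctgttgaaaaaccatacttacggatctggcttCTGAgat
Snord87 in Snhg6: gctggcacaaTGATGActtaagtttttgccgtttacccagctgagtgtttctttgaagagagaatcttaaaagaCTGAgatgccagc
Snora16a in Snhg12: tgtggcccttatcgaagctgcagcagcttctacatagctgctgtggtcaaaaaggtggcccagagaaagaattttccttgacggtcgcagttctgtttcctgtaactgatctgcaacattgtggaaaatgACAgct
Snora24 in Snhg8: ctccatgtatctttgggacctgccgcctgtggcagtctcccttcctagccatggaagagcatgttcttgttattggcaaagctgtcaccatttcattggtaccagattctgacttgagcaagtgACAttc
Snora9 in Snhg15: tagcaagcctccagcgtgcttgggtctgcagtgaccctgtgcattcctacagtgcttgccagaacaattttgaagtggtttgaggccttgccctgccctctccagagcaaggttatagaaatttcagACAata
The first 4 have the short C/D form, and the last 3 the longer H/ACA form that ends in ACA and 3 more bases.

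The RefSeq promoter table (GRCm38.p6, 250 bases before to 50 after each start) held 8 entries for 7 of the hosts, with 2 for Gas5. Each window was searched on both strands. A pyrimidine run, a C followed by at least 4 pyrimidines and beginning within 5 bases of the start, was read on the gene's strand only. Such a run stood at the start of 4 of the 8 member entries, those of Gas5, Snhg3, Snhg8 and Snhg12, and of 18.3% of all 32851 promoters. TATAAA was found in 4 of the 8 (Snhg1, Snhg3, Snhg5 and Snhg8) and in 13.6% of all. In the Snhg3 window the last one on the gene's strand began 22 bases after the start. The cAMP response element TGACGTCA occurred in the Gas5 and Snhg15 windows and in 1.79% of all. The MYC-type E-box CACGTG was found in Snhg15 (7.15% of all) and the antioxidant response element core TGACNNNGC in Snhg8 (12.4% of all). TGATGNAA, a composite element of ATF4 and C/EBP factors, and GAANNTTC, a pair of heat shock units, were in none of the 8, against 3.97% and 7.86% of all. The cAMP response element and the antioxidant core share the letters TGAC, and no member window held both. These counts describe letters in a window and say nothing of what binds there. The 100 bases around the start of 4 hosts are shown, at chr1:161035116-161035215 (plus strand), chr4:132308628-132308727 (plus), chr3:123508287-123508386 (minus) and chr19:8723437-8723536 (plus), with the pyrimidine run and TATAAA on the gene's strand in capitals.
Gas5 promoter: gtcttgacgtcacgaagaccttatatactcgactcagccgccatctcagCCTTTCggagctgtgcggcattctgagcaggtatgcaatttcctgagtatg
Snhg12 promoter: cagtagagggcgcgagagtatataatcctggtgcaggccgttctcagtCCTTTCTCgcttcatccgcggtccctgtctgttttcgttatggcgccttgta
Snhg8 promoter: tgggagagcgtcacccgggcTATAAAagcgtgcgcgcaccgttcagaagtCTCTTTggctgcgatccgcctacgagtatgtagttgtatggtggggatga
Snhg1 promoter: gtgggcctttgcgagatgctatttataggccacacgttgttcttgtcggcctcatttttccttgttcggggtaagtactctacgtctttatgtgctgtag
The first 3 carry a run at the start. The Snhg1 stretch has no such run, and its TATAAA is on the opposite strand, where it reads as tttata in the letters shown.

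On the deposited coordinates (GRCm39), Gas5 (ENSMUSG00000053332) lies on chromosome 1 from 160861992 to 160866116 on the plus strand, Snhg1 (ENSMUSG00000108414) on chromosome 19 from 8700801 to 8703811 (plus) and Snhg12 (ENSMUSG00000086290) on chromosome 4 from 132035932 to 132038762 (plus). On the minus strand, Snhg3 (ENSMUSG00000085241) lies on chromosome 4 from 132075325 to 132080997, Snhg5 (ENSMUSG00000097195) on chromosome 9 from 88377321 to 88405615, and Snhg6 (ENSMUSG00000098234) on chromosome 1 from 9926809 to 10014398. Snhg8 (ENSMUSG00000104960) lies on chromosome 3 from 123301194 to 123302053 and Snhg15 (ENSMUSG00000085156) on chromosome 11 from 6475295 to 6478841, both on the minus strand. The deposited gene length equals 100% of the span of Snhg1, Snhg8 and Snhg12, 97.0% of that of Gas5 and 84.9% of that of Snhg15. Such lengths leave little room for introns, so the counts of these 5 genes can include RNA that retains introns. The share is 17.4% for Snhg3, 12.8% for Snhg5 and 4.82% for Snhg6, whose model stretches over 87590 bases.

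The order of hosts per kilobase depends on the deposited lengths, which are 100% of the span of Snhg1, Snhg8 and Snhg12 and 4.82% of that of Snhg6. In vehicle cells at 24 h, Gas5 was the most abundant host per kilobase, at 18.9 ± 0.395 CPM per kb (mean ± SD, n = 3, as for all levels). Snhg1 (10.8 ± 0.713), Snhg6 (10.7 ± 0.165) and Snhg8 (9.27 ± 1.44) followed and did not differ beyond their spread. Snhg15 (4.81 ± 0.715) and Snhg5 (4.28 ± 0.207) came next, within their spread. Snhg12 (3.88 ± 0.246) was lower, with every library below every Snhg5 library, and Snhg3 was at 0.476 ± 0.22. The order was different at 4 h in vehicle, where Snhg1 (19.0 ± 1.63 CPM per kb) stood above Gas5 (13.8 ± 2.24). Snhg15 (8.38 ± 2.5) and Snhg6 (8.27 ± 1.67) were then level, as were Snhg12 (6.07 ± 0.861), Snhg5 (5.77 ± 0.158) and Snhg8 (5.57 ± 1.27). Treated cells at 4 h had Snhg1 (14.8 ± 3.19 CPM per kb) and Gas5 (13.9 ± 1.47) level at the top, then Snhg15 (9.29 ± 0.761). Snhg12 (6.56 ± 0.612), Snhg6 (5.67 ± 0.851), Snhg5 (5.09 ± 0.553) and Snhg8 (4.71 ± 0.142) followed. Among these last 4, the libraries of each host overlapped those of the next. In treated cells at 24 h Gas5 reached 38.6 ± 2.72 CPM per kb, followed by Snhg1 (22.3 ± 2.69), Snhg6 (16.2 ± 1.15), Snhg12 (12.7 ± 0.645) and Snhg8 (11.6 ± 1.23), the last 2 within their spread. Snhg15 (6.25 ± 0.175) and Snhg5 (5.81 ± 0.681) came next, also within their spread, before Snhg3 (0.17 ± 0.0805). Snhg12 thus stood last of the 7 tested hosts in vehicle at 24 h and behind only Gas5, Snhg1 and Snhg6 in treated cells. The summed level of all 8 genes was 203.0 ± 8.01 CPM in vehicle and 375.0 ± 23.7 in treated cells at 24 h. At 4 h the sums were 216.0 ± 12.2 and 193.0 ± 25.1 CPM.

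**Figure D1:**
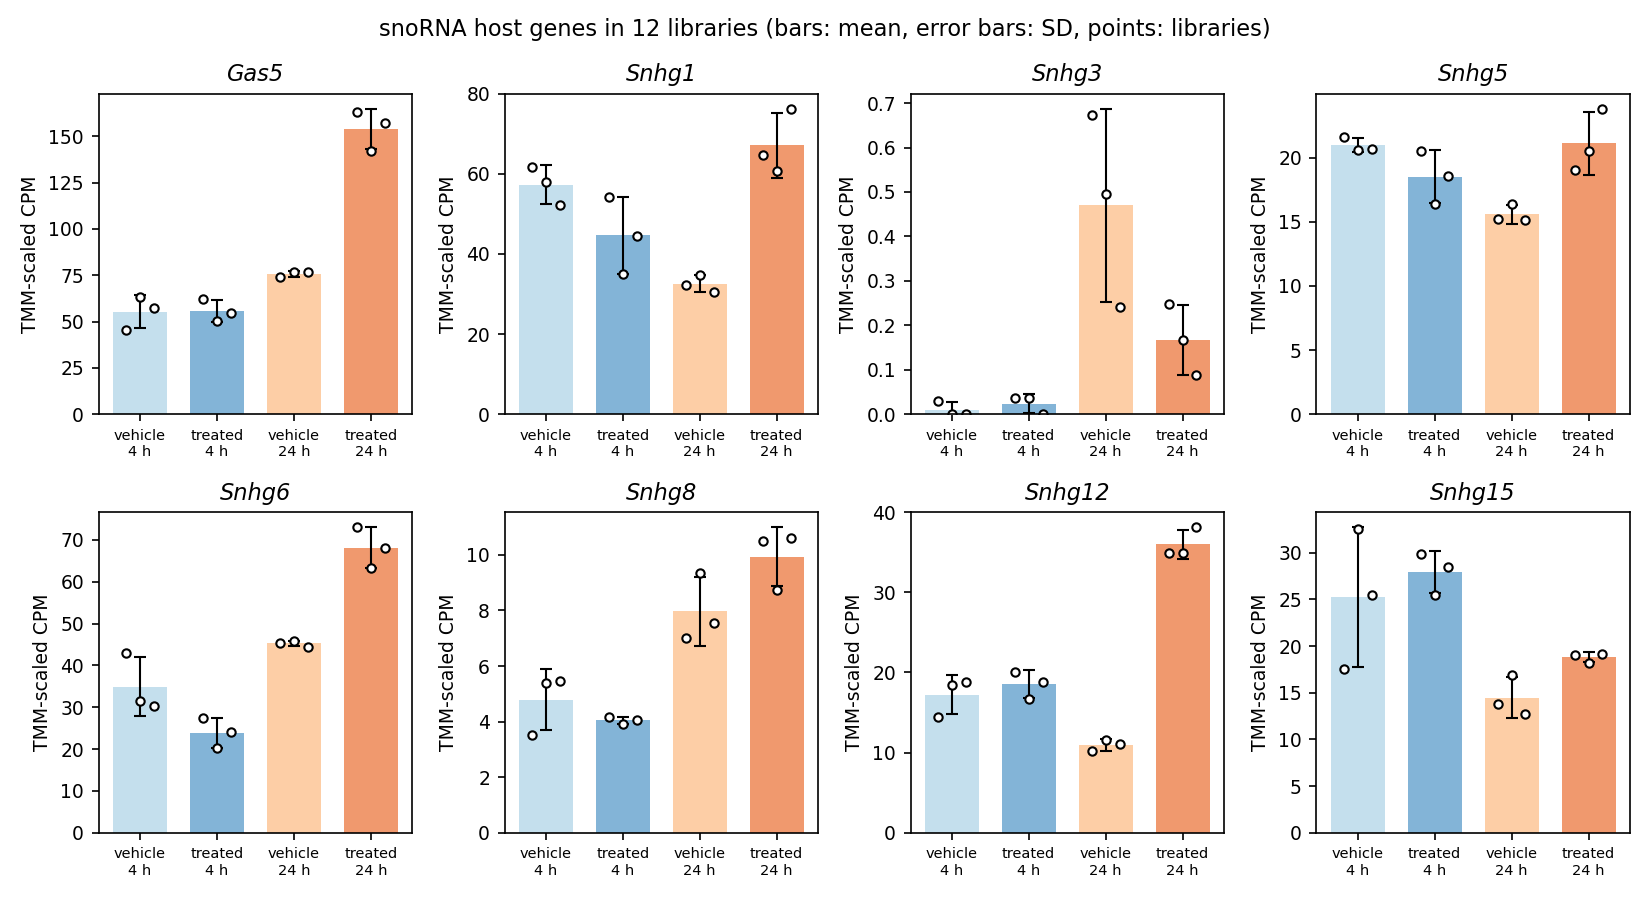
Levels of the 8 host genes in 12 libraries, 1 panel a gene with its own y axis in TMM-scaled CPM; bars are means of 3 libraries, error bars SD and points single libraries. The 3 treated 24 h libraries lie above the 3 vehicle 24 h libraries for Gas5, Snhg1, Snhg5, Snhg6, Snhg12 and Snhg15, and overlap them for Snhg8 and Snhg3.

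After 24 h of MCB-613-10-1, 7 of the 8 host genes were tested and all 7 were called as higher. Of 12 alternative fits, Snhg8 was called in 4 and Snhg15 in 10. Snhg12 rose most, by 3.26-fold, Snhg1 by 2.05-fold and Gas5 by 2.03-fold. Snhg3 did not pass the filter on low counts. At this time 74.7% of all 15575 genes tested were called at an adjusted p under 0.05, 36.7% as higher and 38.0% as lower, so a call alone says little about a gene at 24 h. In 6 of the 7 every treated library lay above every vehicle library, as in 38.3% of all genes, and 39.1% of all genes lay wholly below. The members' median log2 fold change was 0.58, beside a median of -0.02 and quartiles of -0.72 and 0.59 over all genes. In bulk RNA, more RNA per cell and a different number of cells that make it cannot be told apart, and the part of the lower summed levels of fibroblast, leukocyte, cardiomyocyte, and pericyte and smooth muscle markers in the treated 24 h libraries was not tested.

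Gas5, the host of the largest set of C/D models here, stood at 73.9, 76.7 and 76.5 CPM in the vehicle libraries at 24 h and at 163, 142 and 157 in the treated ones. The groups lay far apart and the vehicle libraries were close to each other. Its log2 fold change was 1.02 (standard error, SE, 0.05, edgeR quasi-likelihood adjusted p = 1.78e-12), higher than that of 86.5% of the genes tested. Snhg1 was at 32.3, 34.8 and 30.5 CPM in vehicle and at 64.6, 60.6 and 76.2 in treated libraries, again with no overlap. The change of Snhg1, which also hosts mainly C/D snoRNAs, was 1.04 (SE 0.08, edgeR adjusted p = 5.87e-09).

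Snhg6, with the C/D snoRNA Snord87, was at 45.3, 45.9 and 44.5 CPM in vehicle and 73.0, 63.3 and 68.1 in treated libraries. All treated values lay above all vehicle values, and the log2 fold change was 0.58 (SE 0.06, edgeR adjusted p = 5.1e-08) or 1.5-fold. Snhg5, host of Snord50a and Snord50b, went from 15.2, 16.4 and 15.1 CPM to 19.0, 20.5 and 23.8. Its groups did not overlap either, and the rise was smaller, at 0.43 (SE 0.09, edgeR adjusted p = 0.000379) or 1.35-fold. With library totals it was 0.24 (edgeR adjusted p = 0.0278).

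Snhg12, which carries H/ACA models beside the C/D model Snord99, was at 10.2, 11.6 and 11.1 CPM in vehicle and at 34.9, 34.9 and 38.1 in treated libraries. The treated libraries lay close together and well above the vehicle libraries. The rise of 1.70 on the log2 scale (SE 0.08, edgeR adjusted p = 3.98e-13) placed it above 94.4% of the genes tested.

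The 2 tested hosts with a single H/ACA model had the smallest changes of the 7. The change of Snhg5 (0.43, SE 0.09), which holds C/D models, was similar in size to that of Snhg15. Any link between the kind of snoRNA and the size of the change was not tested. Snhg15, host of Snora9, was at 13.8, 16.9 and 12.7 CPM in vehicle and 19.0, 18.2 and 19.2 in treated libraries. The groups did not overlap, although the highest vehicle library came near the lowest treated one. Its log2 fold change was 0.37 (SE 0.10, edgeR adjusted p = 0.00276) or 1.3-fold, and the call ended with library totals in place of TMM (0.18, adjusted p = 0.123) and with all 12 libraries in the fit (adjusted p = 0.0673). Snhg8, host of Snora24, was at 7.0, 9.36 and 7.55 CPM in vehicle and 10.5, 8.73 and 10.6 in treated libraries. Here the groups overlapped, because the second vehicle library lay above the second treated one. The change was 0.31 (SE 0.13, edgeR adjusted p = 0.0412) or 1.24-fold. This call ended in 8 of 12 alternatives: library totals (0.12, adjusted p = 0.427), no filter (0.0552), the replicate block (0.0532), all 12 libraries (0.0855), without vehicle replicate 1 (0.188) or 3 (0.119), and without treated replicate 1 (0.13) or 3 (0.113).

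Snhg3, host of the H/ACA models Snora73a and Snora73b, had 25, 15 and 8 counts in the vehicle and 6, 5 and 2 in the treated libraries at 24 h. As levels these were 0.673, 0.495 and 0.241 CPM against 0.247, 0.166 and 0.0886, and the lowest vehicle library lay just below the highest treated one. In the authors' deposited table its log2 fold change was -1.49 with an adjusted p of 0.13. Of 5 alternative fits that kept it, edgeR called it as lower without the filter (-1.49, adjusted p = 0.0474), without vehicle replicate 3 (-1.79, 0.0134) and without treated replicate 1 (-1.82, 0.037), and not without treated replicate 2 or 3 (0.084 and 0.111). At 4 h it had 1, 0 and 0 counts in vehicle and 1, 1 and 0 in treated libraries, which no fold can rest on. Rcc1, the gene of a nucleotide exchange factor for Ran, lies on the same strand and overlaps 5592 of the 5673 bases of Snhg3. Rcc1 stood at 59.5 ± 2.74 CPM in vehicle and 59.1 ± 4.07 in treated libraries at 24 h, and the part of this overlap in the low counts of Snhg3 was not tested.

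At 4 h none of the 7 tested hosts was called by edgeR, with 2 below an unadjusted p of 0.05 (Snhg1 and Snhg6), where 7.16% of 15336 genes were called, 3.45% as higher and 3.71% as lower. DESeq2 called 1 member, Snhg6. The members' median log2 fold change was -0.18, beside -0.01 and quartiles of -0.20 and 0.17 over all genes. Snhg6 was at 43.0, 31.4 and 30.2 CPM in vehicle and 27.4, 20.3 and 24.0 in treated libraries. Every treated value lay below every vehicle value, which held for 2 hosts and for 15.2% of all genes, while 14.5% of all genes had every treated value above. Its log2 fold change was -0.55 (SE 0.15, edgeR adjusted p = 0.052), and 6 of 12 alternatives placed it under the threshold, with the lowest adjusted p at 0.00352. One of these left out vehicle replicate 3 (0.0431). In the authors' deposited table it was -0.54 with an adjusted p of 0.00923.

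Snhg1 at 4 h was at 61.8, 57.9 and 52.1 CPM in vehicle and 54.3, 35 and 44.5 in treated libraries. The first treated library lay within the vehicle range and the other two below it, and the log2 fold change was -0.36 (SE 0.14, edgeR adjusted p = 0.149). Snhg5 was at 21.6, 20.6 and 20.7 CPM against 20.5, 16.4 and 18.6, which did not overlap by a narrow margin (-0.18, SE 0.11, edgeR adjusted p = 0.362). Snhg8 was at 3.53, 5.39 and 5.45 CPM in vehicle and 4.17, 3.93 and 4.05 in treated libraries. Its first vehicle library was the lowest of the 6 (-0.24, SE 0.19, edgeR adjusted p = 0.493). Without that library the value was -0.42, and without vehicle replicate 2 or 3 it was -0.15 or -0.13. Without treated replicate 2, Snhg1 was at -0.22 and Snhg5 at -0.10, and without treated replicate 1 they were at -0.53 and -0.26. None of these values was called, the nearest being Snhg1 without treated replicate 1 (edgeR adjusted p = 0.0597).

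Gas5 at 4 h was at 45.6, 63.3 and 57.2 CPM in vehicle and 62.0, 50.3 and 54.8 in treated libraries, all treated values within the vehicle range. Its log2 fold change was 0.01 (SE 0.13, edgeR adjusted p = 0.972). Snhg12 was at 14.4, 18.4 and 18.8 CPM against 20.1, 16.7 and 18.8 (0.11, SE 0.13, edgeR adjusted p = 0.65), and Snhg15 at 17.6, 32.6 and 25.5 against 29.9, 25.5 and 28.5 (0.15, SE 0.19, edgeR adjusted p = 0.677). In both the groups overlapped, and the first vehicle library was the lowest of the 6. That library also had the lowest Gas5 and Snhg8 values and the highest Snhg6 value at 4 h. Its mean correlation with its own group over the genes kept by the filter was 0.9862, the lowest of the 12 libraries. Without this library 1760 of all genes were called at 4 h, beside 1098 with it. The values of Gas5, Snhg12 and Snhg15 then turned to -0.11, -0.00 and -0.05, none of them called.

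The difference between the 24 h and the 4 h response was tested as an interaction over all 12 libraries. It was called as higher for 5 of 7 hosts and as lower for 0, where 53.8% of 16341 genes were called, 26.7% as higher and 27.1% as lower. Snhg12 had the largest difference, 1.60 (log2, SE 0.16, edgeR adjusted p = 1.06e-07), then Snhg1 with 1.40 (SE 0.18, edgeR adjusted p = 1.03e-05), Snhg6 with 1.14 (SE 0.17, edgeR adjusted p = 3.21e-05) and Gas5 with 1.02 (SE 0.14, edgeR adjusted p = 1.06e-05). Snhg5 followed with 0.62 (SE 0.15, edgeR adjusted p = 0.00167). For Snhg1, Snhg5 and Snhg6 the difference exceeds the 24 h change because the 4 h value was below 0. The hosts Snhg8 (0.55, SE 0.24, edgeR adjusted p = 0.0566) and Snhg15 (0.23, SE 0.24, edgeR adjusted p = 0.46) were not called. Snhg8 was called with DESeq2 (adjusted p = 0.0482) and without vehicle 4 h replicate 1 (0.00461), vehicle 24 h replicate 2 (0.0275) or treated 24 h replicate 2 (0.0426). Snhg15 was called without vehicle 4 h replicate 1 (0.0251). The members' median difference was 1.02, beside 0.0 and quartiles of -0.67 and 0.56 over all genes.

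**Figure D2:**
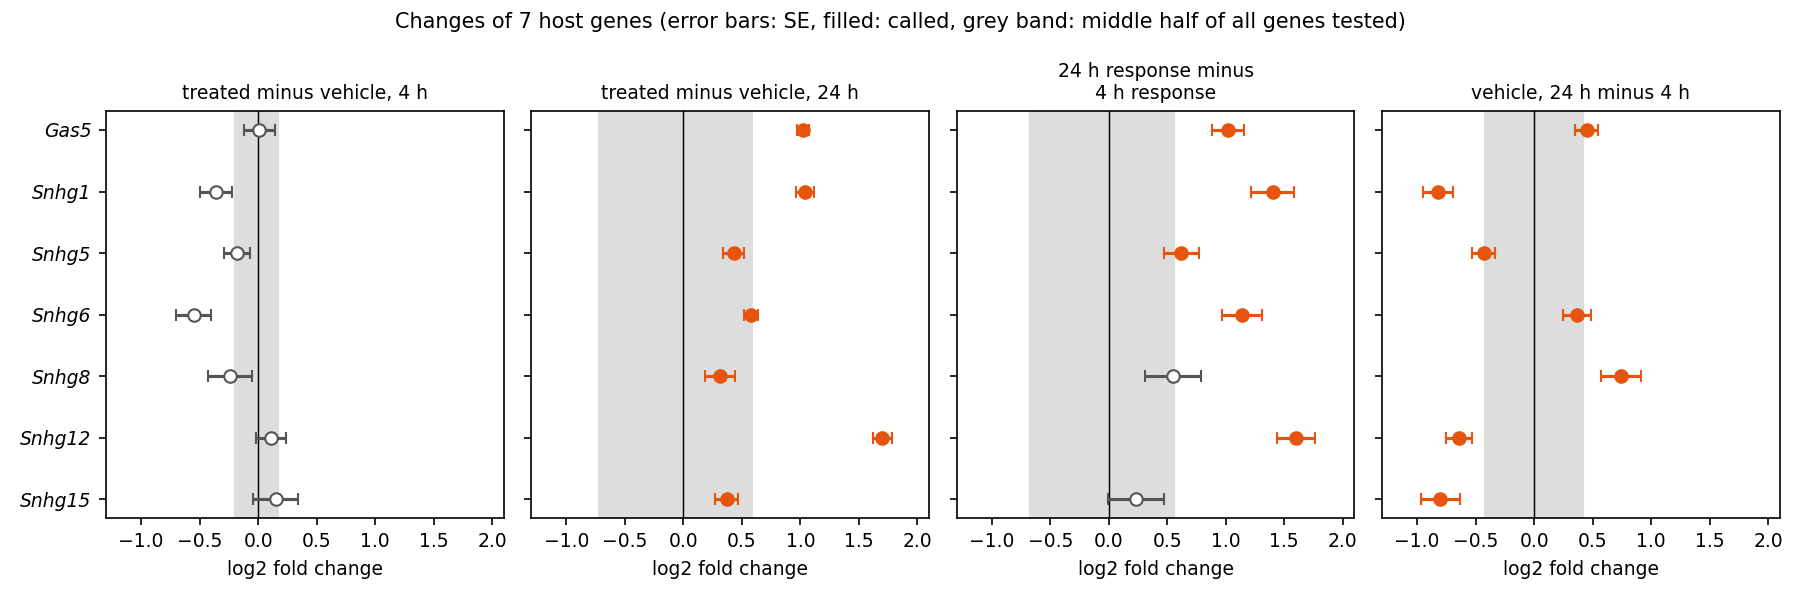
Log2 fold changes (x axes) of the 7 tested host genes in the 4 comparisons, with SE as error bars; filled points were called at an adjusted p under 0.05 and the grey band is the interquartile range of all genes tested. At 4 h no point is filled, at 24 h all 7 are, and in vehicle over time 3 lie above and 4 below 0.

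The vehicle cells also differed between the times. Of the 7 hosts, 3 were higher and 4 lower at 24 h than at 4 h in vehicle, each with groups that did not overlap, where 54.3% of 16341 genes were called (27.4% higher, 27.0% lower; 31.1% lay wholly above and 29.6% wholly below). Higher were Snhg8 by 0.74 (log2, SE 0.17, edgeR adjusted p = 0.00104), Gas5 by 0.45 (SE 0.10, edgeR adjusted p = 0.00104) and Snhg6 by 0.37 (SE 0.12, edgeR adjusted p = 0.0156). The call of Snhg6 ended without vehicle 4 h replicate 2 (0.0687) or 3 (0.0715). Lower were Snhg1, with -0.82 (SE 0.13, edgeR adjusted p = 7.78e-05), Snhg15 with -0.80 (SE 0.17, edgeR adjusted p = 0.00123), Snhg12 with -0.64 (SE 0.11, edgeR adjusted p = 9.21e-05) and Snhg5 with -0.43 (SE 0.10, edgeR adjusted p = 0.00186). Snhg3 was not tested, with 0 or 1 count in each vehicle library at 4 h and 8 to 25 at 24 h. So the hosts took different courses in vehicle cells, and their treated 24 h libraries stood differently to the 4 h ones. For Snhg1 (67.1 ± 8.11 CPM in treated cells at 24 h and 57.3 ± 4.89 in vehicle at 4 h) and Snhg5 (21.1 ± 2.48 and 21.0 ± 0.575) they overlapped the vehicle libraries of 4 h. For Gas5, Snhg6, Snhg8 and Snhg12 (154 ± 10.9, 68.1 ± 4.84, 9.95 ± 1.06 and 36.0 ± 1.83 CPM) every treated 24 h library lay above every 4 h library. For Snhg15 (18.8 ± 0.527 CPM) all 3 lay above only the lowest 4 h library, vehicle replicate 1 at 17.6 CPM. They lay below every other 4 h library, with group means of 25.2 CPM in vehicle and 28.0 in treated cells at 4 h. The share of all genes with such positions was not counted, so they only describe the levels of these hosts. Annotated ribosomal RNA took 0.543% to 1.1% of counts at 4 h and 2.27% to 4.09% at 24 h, and its part in this comparison was not tested. Time and any other difference between the 2 tables cannot be told apart.

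Other RNAs that host snoRNAs did not move as one group at 24 h. Of 14 on the list, 12 had 1 gene identifier in the tables and 11 were tested. Of these 11, 4 rose and 2 fell, where 36.7% of all genes were called as higher and 38.0% as lower. The median of the 11 was 0.21. The median was 0.021 with library totals and 0.093 without vehicle replicate 1, and 6 rose without vehicle replicate 2. Zfas1, a C/D host, rose from 23.1 ± 1.81 to 48.2 ± 8.57 CPM (1.05, edgeR adjusted p = 6.73e-05), Snhg20 by 1.36, Snhg17 by 0.61 and the sparse Snhg11 by 3.52 from 0.392 CPM. Snhg18 fell by 1.73 and Rian, the imprinted host of C/D snoRNAs, fell by 0.69, from 70.5 ± 3.86 to 43.8 ± 1.42 CPM (edgeR adjusted p = 3.1e-09). Snhg16 (0.36), Epb41l4aos (0.21), Snhg10 (0.12), Dancr (-0.07) and Snhg14 (-0.45) were not called. At 4 h, 0 of 10 were called by edgeR, where 7.16% of all genes were.

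The proteins that bind snoRNAs were measured too. Of the 8 core snoRNP protein genes, 2 rose and 4 fell at 24 h, where 36.7% of all genes were called as higher and 38.0% as lower. The median of the 8 was -0.10. Fbl, the methyltransferase of C/D particles, rose by 0.28 and Gar1 of the H/ACA particle by 0.34. Nop56 and Nop58 of the C/D particle fell by 0.46 and 0.24, and Dkc1, the pseudouridine synthase, and Nop10 of the H/ACA particle fell by 0.45 and 0.38. With library totals the 2 rises were not called, 5 genes were lower and the median was -0.298. Of 11 assembly factors 8 rose and 2 fell (median 0.31; 5 and 3 with library totals, median 0.119). Among them Znhit3 rose by 1.15 and Shq1, the chaperone of Dkc1, by 0.87, while Znhit6 fell by 0.59 and Tcof1 by 0.33.

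Genes of the decay and translation pathways that act on host RNAs gave the next lists. Beside their counts, 36.7% of all genes were called as higher and 38.0% as lower at 24 h. Of 17 nonsense-mediated decay factors 12 rose and 3 fell at 24 h (median 0.41; 11 and 5 with library totals, median 0.22). The kinase Smg1 rose by 1.03, Smg8 by 0.80 and the helicase Upf1 by 0.78, while Upf3b fell by 0.93, the endonuclease Smg6 by 0.30 and Smg5 by 0.15. At 4 h Smg1 was the only one of the 17 that edgeR called (0.43, adjusted p = 0.0190). This count was 0 without treated replicate 1, 2 or 3 and without vehicle replicate 2 or 3. It was 2 without vehicle replicate 1, with all 12 libraries in the fit, with no filter and with the replicate block. The 79 ribosomal protein genes, which share the 5′ TOP sequence with many hosts, had a median of 0.40 at 24 h, and 71 rose and 0 fell. With library totals 51 rose and 2 fell, with a median of 0.209. Rpl13a rose by 0.74 and Rplp2 by 0.63, although ribosomal protein genes have many pseudogene copies and how their reads divide is uncertain. Of 18 other 5′ TOP genes of translation 15 rose and 2 fell (median 0.44; 13 and 3 with library totals, median 0.246), among them Eif3h with 0.90 and the elongation factor Eef2 with 0.82 on the higher side, and Hnrnpa1 with -0.88 and Eef1d with -0.13 on the lower. Of 51 genes of ribosome biogenesis and RNA polymerase I, 33 rose and 8 fell (median 0.38; 27 and 11 with library totals, median 0.19). Taf1a, a subunit of a polymerase I initiation factor, rose by 2.46 and Utp14a by 1.06, and Bop1 and Noc2l fell by 0.74 and 0.58. At 4 h, 0 of the 18 and 0 of the 51 were called by edgeR, and 5 of the 79 ribosomal protein genes were called, all lower. The count of ribosomal protein genes was 0 without treated replicate 2 or 3. It was 12, all lower, without vehicle replicate 1 and with all 12 libraries in the fit. Of all genes, 3.45% were called as higher and 3.71% as lower at that time.

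**Figure D3:**
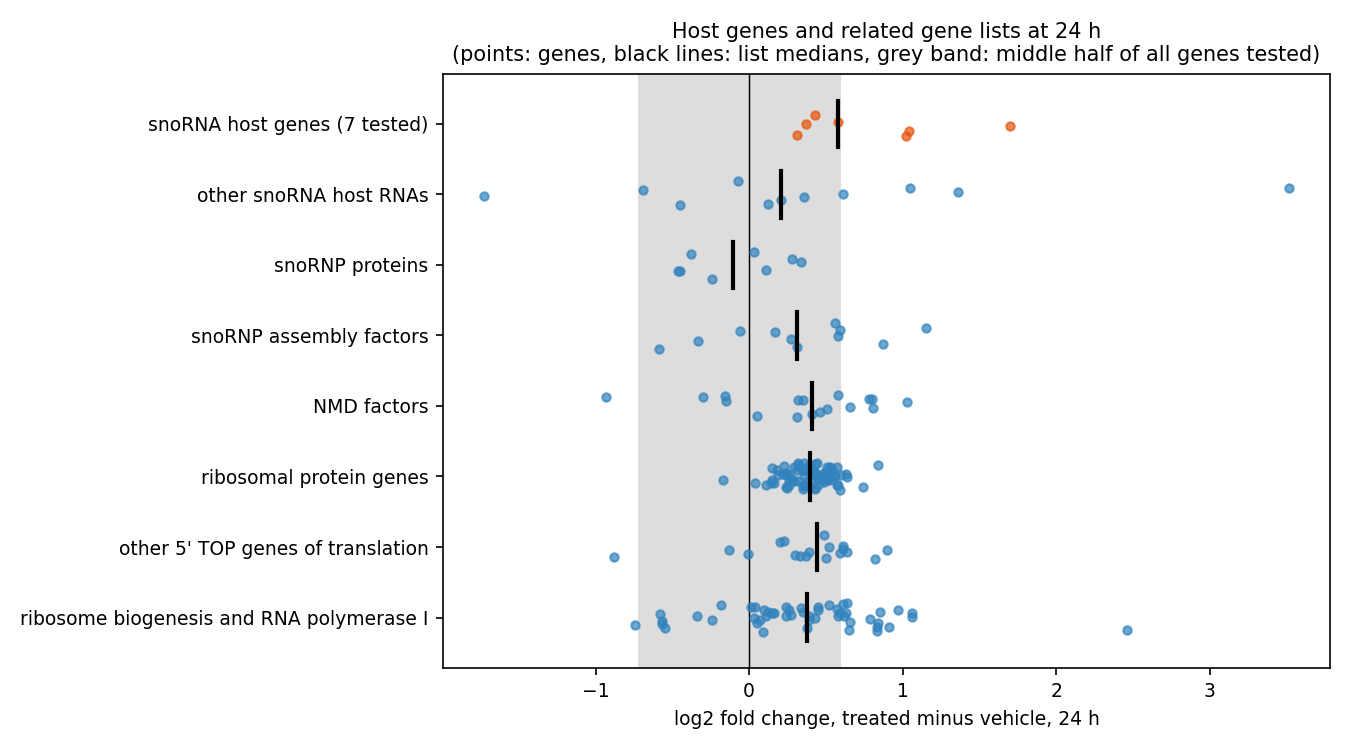
Log2 fold change at 24 h (x axis) of each tested gene, by list (y axis); black lines are list medians and the grey band is the interquartile range of all genes tested. The host genes have a median of 0.58, ribosomal protein genes 0.40 and snoRNP proteins -0.10, and other host RNAs spread from -1.73 to 3.52.

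Several hosts overlap or adjoin another gene. Whether the authors counted by strand is not given in the sources used here, so reads of overlapping genes on opposite strands may not be told apart. Gas5 and Zbtb37, a zinc finger gene, lie head to head on opposite strands and share 428 bases. Zbtb37 fell at both times, by 0.53 at 4 h (edgeR adjusted p = 0.0187) and by 1.34 at 24 h (edgeR adjusted p = 3.76e-09), while Gas5 was not called at 4 h and rose at 24 h. Snhg1 and Slc3a2, which encodes the heavy chain of several amino acid transporters, start 68 bases apart in opposite directions. Slc3a2 rose at both times, by 0.80 at 4 h (edgeR adjusted p = 0.000843) and by 2.16 at 24 h (edgeR adjusted p = 3.53e-16), from 254.0 ± 18.1 to 1140 ± 70.0 CPM. The 4 h value of Snhg1 was thus on the other side of 0 from that of its neighbour.

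Snhg6 overlaps the kinase gene Sgk3 on the opposite strand by 44262 bases, and Sgk3 fell by 0.54 at 24 h (edgeR adjusted p = 0.000245) where Snhg6 rose. Mcmdc2, which Snhg6 also overlaps by 33448 bases, was under 0.17 CPM in every group mean. Snhg8 ends 948 bases from the end of Prss12, a serine protease gene that rose by 1.64 at 24 h (edgeR adjusted p = 4.3e-09). Snhg12 ends 312 bases from the end of Trnau1ap, which acts in selenocysteine insertion and fell by 0.31 at 24 h (edgeR adjusted p = 0.00229). For Gas5, Snhg6 and Snhg12 the neighbour thus had the opposite sign at 24 h, and for Snhg1 and Snhg8 the same sign with a larger value. The long non-coding gene Gm17300 overlaps Snhg3 by 1611 bases on the opposite strand and was not called (-1.0 at 4 h, edgeR adjusted p = 0.053, and -0.26 at 24 h, edgeR adjusted p = 0.511). The pseudogene Gm9369, 1538 bases from Snhg8, was at most at a group mean of 0.037 CPM. No gene of the tables lay within 2000 bases of Snhg5 or Snhg15.

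**Figure D4:**
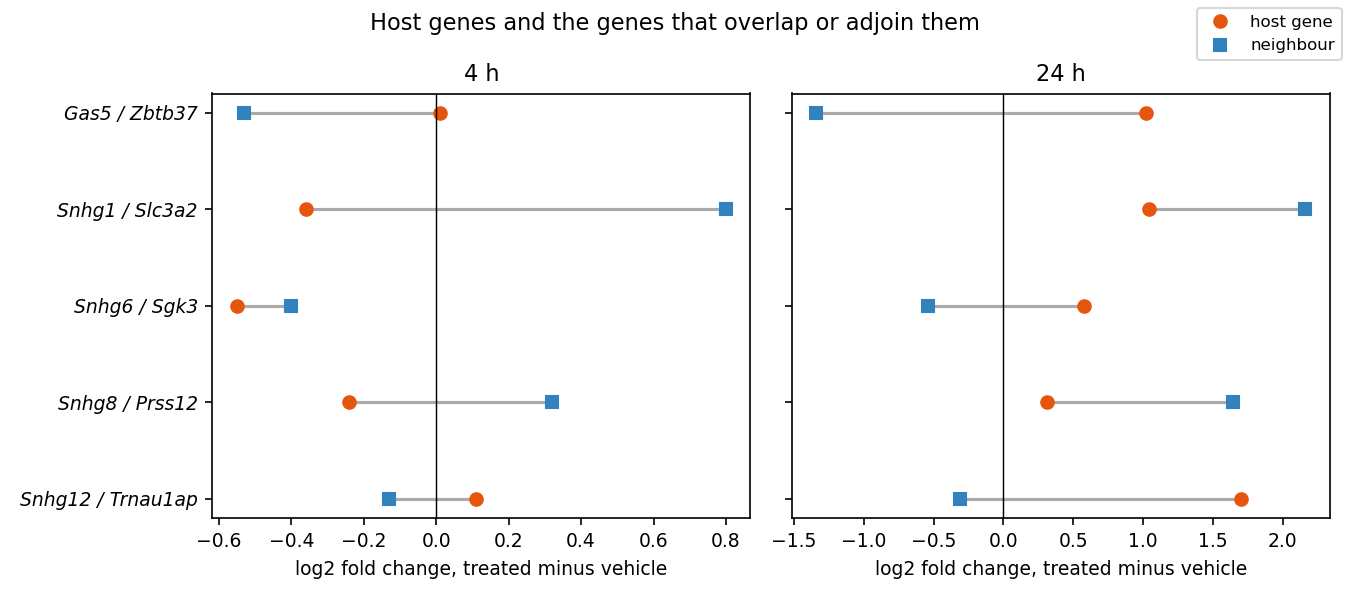
Log2 fold change of 5 host genes (circles) and of the tested gene that overlaps or adjoins each (squares) at 4 h and 24 h, with the x axis scaled separately at each time. At 24 h Zbtb37, Sgk3 and Trnau1ap lie below 0 beside hosts above 0, and Slc3a2 and Prss12 lie above their hosts.

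The course of each host over the 12 libraries was compared by the root mean square difference of centred log2(CPM + 1) values. Snhg1 and Snhg5 were the most alike (0.24), then Gas5 and Snhg8 (0.29) and Snhg6 and Snhg8 (0.30). The nearest host to Snhg12 was Snhg1 (0.34) and to Snhg15 it was Snhg5 (0.36). The largest difference between any pair was 0.88. Among 12298 other genes, Lsm1 (0.08), Mrpl32 (0.09), Kin (0.09), Polr2c (0.09) and Zranb2 (0.09) were nearest to the mean course of the hosts. A distance to a mean course is not comparable with the distances between single hosts. These 5 genes were picked on the same 12 libraries, so their own rises at 24 h follow from the choice. Their 24 h log2 fold changes were 0.77, 0.88, 0.73, 0.77 and 0.81.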

How the data were processed

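Per the submitters' processing notes, which give no role or order, the authors used GRCm39 (mm39), featureCounts 1.5.0-p3, HISAT2 2.0.5 and a DESeq2 whose version is not stated. The library kit's strandedness and the counting options are not given in the sources used here. The authors deposited, per the file headers, raw read counts per gene and library in 1 table per time, with gene lengths and their own log2 fold change and adjusted p-value, which are quoted as theirs. The deposited FPKM values were not used.

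In R 4.3.3, edgeR 4.0.16 with limma 3.58.1 fitted the raw counts (glmQLFit and glmQLFTest, TMM scaling, robust dispersions, filterByExpr with its defaults). Benjamini-Hochberg adjustment ran over every gene in a fit, and an adjusted p under 0.05 was a call. Each time was fitted on its own 6 libraries. The interaction and the comparison of vehicle between times were fitted on all 12, with a gene absent from 1 table entered as 0 counts there. Log2 fold changes are given as treated minus vehicle, or as 24 h minus 4 h. The printed CPM were scaled over all 12 libraries, so their ratios differ slightly from the fitted changes. An SE is the log2 fold change divided by the root of the F statistic. The scripts were tested on simulated data in which all genes had the same dispersion and few genes changed, unlike at 24 h. No result here rests on that test.

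The members, gene lists and motifs were chosen with earlier results of these data known. All 8 members were named. For lists, the 2 largest called rises and falls at 24 h above 1 CPM per kb were named, and any gene of the lists of other hosts, snoRNP proteins and decay factors could be; 1 gene that the rule names is not reported here. Genes within 2000 bases of a member and the 5 genes with the most similar course were also named. Marker lists covered fibroblasts, cardiomyocytes, endothelium, leukocytes, pericytes and smooth muscle, epicardium and Schwann cells. Other settings tried were DESeq2 1.42.0, its size factors in edgeR, library totals, no filter, a replicate block, other libraries in the fit, and leaving out each library.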

Additional observations from a re-analysis of the deposited data

Results flagged for a closer look

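For 5 hosts the response differed between the times by the interaction test of edgeR. The 24 h minus 4 h difference in log2 fold change was 1.6 for Snhg12, 1.4 for Snhg1, 1.14 for Snhg6, 1.02 for Gas5 and 0.62 for Snhg5. Of all genes, 53.8% were called in this test, 26.7% as higher. All 3 treated libraries of each of these 5 hosts lay above all 3 vehicle libraries at 24 h, as in 38.3% of all genes. The causes of these differences were not tested.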

How the results depend on the processing

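Gas5, Snhg1, Snhg5, Snhg6 and Snhg12 were called at 24 h in all 12 alternatives tried. The number of hosts called as higher there was between 5 and 7, and between 6 and 7 when 1 library was left out. It was 7 in 4 of the 12 alternatives, and in 3 of the others Snhg3 was called as lower. With library totals in place of TMM the median of all genes moved from -0.02 to -0.21 at 24 h and that of the 7 hosts from 0.58 to 0.39. The share of all 24 h calls that were higher then went from 49.1% to 39.0%, at 4 h from 48.2% to 34.5% and for the interaction from 49.6% to 40.0%. At 4 h the number of hosts called went from 0 to 1, Snhg6, with all 12 libraries in the fit, DESeq2, library totals, no filter, the replicate block, and without vehicle replicate 3, and ran from 0 to 1 when 1 library was left out. Over all genes the 4 h calls ran from 443 to 1760 when 1 library was left out, and from 1110 to 2198 in the other alternatives, beside 1098. Values that changed sign were small: Gas5 at 4 h was -0.04 with library totals, -0.11 without vehicle replicate 1 and -0.07 without treated replicate 1. Without that vehicle library Snhg12 was -0.00 and Snhg15 -0.05, and the Snhg15 interaction was -0.01 without vehicle 4 h replicate 2. When 1 library was left out, these values ran from -0.11 to 0.12 for Gas5, -0.00 to 0.18 for Snhg12 and -0.05 to 0.38 for Snhg15 at 4 h, and from -0.01 to 0.43 for the Snhg15 interaction. The cause was not tested. Libraries with the same replicate number showed correlations of their deviations of 0.06 to 0.0899 at 4 h and -0.0305 to 0.0221 at 24 h. The number was the best match for all 3 at 4 h and for 1 of 3 at 24 h. The main fits did not take the numbers as pairs, and whether the 4 h libraries were paired is not known. With the replicate block 1953 genes were called at 4 h, beside 1098 without it. The hosts called with the block were 1 at 4 h (Snhg6, edgeR adjusted p = 0.00631) and 6 at 24 h. Snhg3 had counts of 0 or 1 at 4 h, too few for a fold change. Where it was tested at 24 h its log2 fold change ran from -1.82 to -1.20 and it was called in 3 of 5 fits.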

Other observations

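Among the 7 tested hosts, those with the most snoRNA models, Gas5 (10), Snhg1 (8) and Snhg12 (5), had the largest rises at 24 h (1.02, 1.04 and 1.70). The same order did not appear among the other host RNAs, as Snhg14 with 208 models had a log2 fold change of -0.45 (not called) and Rian with 13 fell by 0.69, while Snhg20 with 1 model rose by 1.36 and Zfas1 with 3 by 1.05. This pattern was noticed after the values were seen and was not tested.

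In the authors' deposited tables the calls were the same as those of the edgeR test for most hosts. The exceptions were Snhg6 at 4 h, which the authors' deposited table gives with an adjusted p of 0.00923 and edgeR with 0.052, and Snhg8 at 24 h, with 0.103 in the authors' deposited table and 0.0412 in edgeR.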
